A study of Mus musculus with 6 samples.

Results

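Motile cilia are the beating hairs of the airway surface, and the 33 genes described here encode their moving parts, the regulators that switch the ciliated cell programme on, and a few abundant ciliated cell products. The list was given by gene name, with no threshold on the measured values. Probes were assigned through their RefSeq accessions, which gave at least 1 probe for 29 of the 33 genes, and 28 of these passed the background filter among 19855 features tested in all. Dnai2, Lrrc23, Ccdc40 and Cdhr3 had no probe assigned in this way and were not analysed here. The probe of Spag6, a central apparatus gene, was well above background on 1 array out of 6, too few for a test. Its near-identical copy Spag6l, which is not on the list, had a difference of -0.31 (limma adjusted p = 0.248).

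The lungs of 6 mouse embryos at E18.5 (embryonic day, late in gestation) were compared, each on 1 single-colour Agilent array. Wild types 1 to 3 carried normal alleles of both ECAT15-1 (Dppa4) and ECAT15-2 (Dppa2). Knockouts 1 to 3 were homozygous null for ECAT15-2 (15-2-/-) and also homozygous for a floxed ECAT15-1 allele (15-1Flox/Flox), so the 2 loci differ together between the groups. Parents were heterozygous at both loci, and the strain background is a mixture of 129Sv, C57/BL6 and a transgenic line (Cre or FLPe) whose own background is not known. The labels name neither litter nor sex, so p-values measure the spread between these embryos.

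A motile cilium has a ring of outer doublet microtubules around a central pair. Outer and inner dynein arms slide the doublets, radial spokes and the central apparatus control the stroke, and the nexin link turns sliding into bending. In the airway the programme is switched on in multiciliated cells by Foxj1, a forkhead transcription factor, together with factors of the RFX family, which bind a DNA sequence called the X-box. At this stage of development ciliated cells line the conducting airways among secretory, basal and neuroendocrine cells, and they are a small share of the whole lung.

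Promoter sequences were searched for the motifs of these factors. The 250 bases before the annotated start were searched on both strands in RefSeq sequences of the assembly GRCm38.p6, which held 29 of the 33 genes. The X-box was searched in a single spelling, GTNNCC and GNAAC with NNN between them, called full here. It was found in 3 of the 29 genes (10.34%), against 2.07% of 27025 genes in the same table. X-boxes of another spacing were not searched, so these counts cover that spelling only. Its half-site GTTGCC, a motif that overlaps the full one and was searched after the full one had been counted, was found in 16 of the 29 genes (55.17%), against 11.82% of all genes. A forkhead motif, TGTTTAC, was found in 1 of the 29 (3.45%), against 3.54% of all genes. The genes compared were not matched for base composition, and a match of letters is no measured binding site.

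The first 3 sequences hold the X-box in the spelling searched, and the last 3 hold the half-site without that spelling. They come from promoters of genes whose signals are described further on. The motif described is in capitals with up to 30 bases on either side, 5′ to 3′ on the strand of the gene. In Hydin the X-box spelling reads on the opposite strand. Other matches are left in lower case, among them the half-site of the opposite strand (ggcaac) in Spag16 and Tekt1.
Hydin (central apparatus), chr8:110266926-110266976, plus strand: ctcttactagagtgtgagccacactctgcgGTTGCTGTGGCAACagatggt
Spag16 (central apparatus), chr1:69826837-69826910, plus strand: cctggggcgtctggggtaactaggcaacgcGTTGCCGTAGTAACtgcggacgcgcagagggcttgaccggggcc
Tekt4 (tektin), chr17:25471400-25471473, plus strand: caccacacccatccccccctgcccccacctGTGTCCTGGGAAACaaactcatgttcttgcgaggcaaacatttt
Dynlrb2 (dynein light chain), chr8:116504934-116504999, plus strand: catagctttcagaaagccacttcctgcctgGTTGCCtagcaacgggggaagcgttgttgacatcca
Mlf1 (ciliated cell product), chr3:67373962-67374027, plus strand: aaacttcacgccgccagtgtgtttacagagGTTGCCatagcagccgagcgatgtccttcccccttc
Tekt1 (tektin), chr11:72361883-72361927, minus strand: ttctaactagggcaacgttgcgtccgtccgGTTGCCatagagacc

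The half-site in the Dynlrb2 promoter is followed by ta and then gcaac, which places both parts of the X-box at a spacing that was not searched. The half-site in the Mlf1 promoter lies next to the single forkhead motif found among the 29 genes, which is seen in lower case just before it. Other genes of motile cilia, listed separately below, held the half-site in 30.68% of 88 genes, and genes of intraflagellar transport in 35.29% of 17.

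Every one of the 28 tested cilia genes lay well above background on all 6 arrays, and none of the 28 differed between knockout and wild type lungs (limma, Benjamini-Hochberg adjusted p under 0.05). Over all features 1.34% passed, 0.720% higher and 0.625% lower in the knockouts. At an unadjusted p under 0.05 there was 1 of the 28 genes, Dnah5, against 25.8% of all features. The log2 difference, given throughout as knockout minus wild type, was below 0 for 22 genes and above 0 for 6, with a median of -0.15 and a range from -0.58 to 0.32. Over all features 9923 of 19855 were below 0. The median fold was 1.17 and the largest 1.49, and the smallest adjusted p was 0.152. For 27 of the 28 genes the 95% interval of the difference lay within a 2-fold change in either direction, the exception being Ccdc153, and for 10 it lay within 1.5-fold. Whole-lung RNA does not separate fewer ciliated cells from less RNA per ciliated cell.

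**Figure D1:**
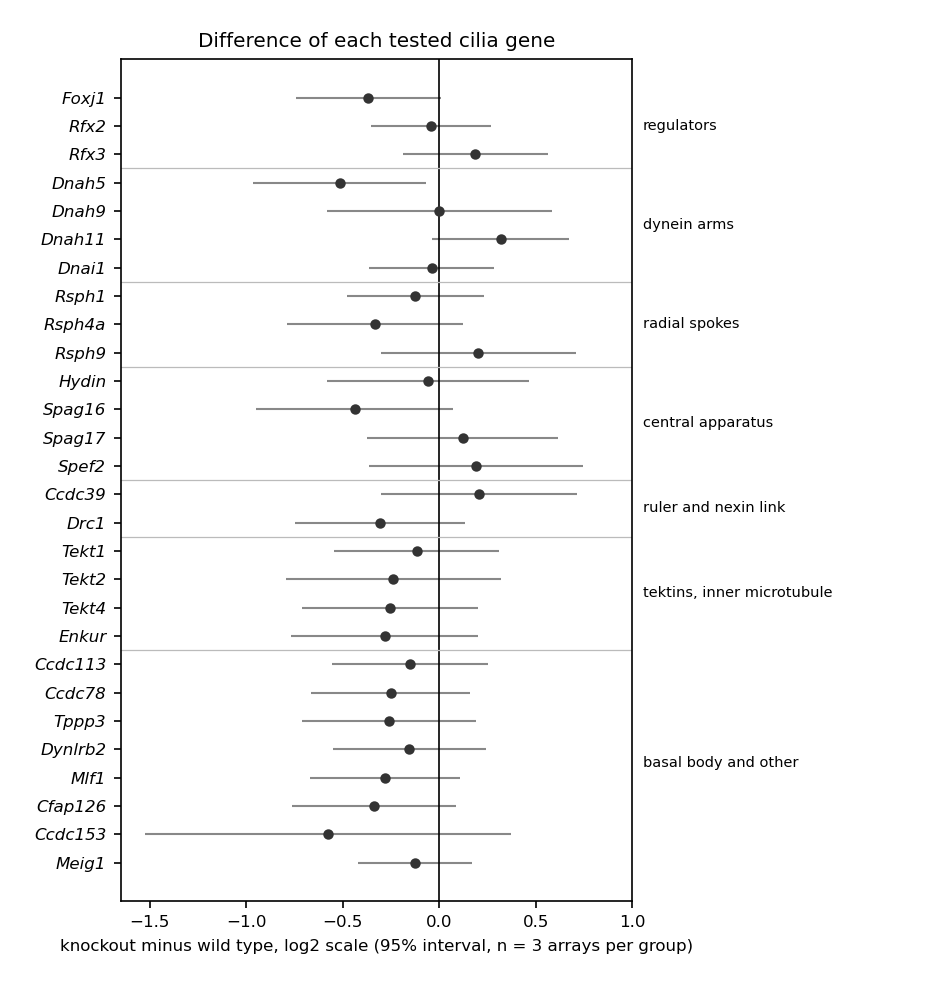
Difference between knockout and wild type lungs for each of the 28 tested cilia genes, as the limma estimate (point) with its 95% interval (line) on the log2 scale, n = 3 arrays per group, grouped by role. The interval of Dnah5 lies below 0 before any adjustment, and the intervals of the other 27 genes cross 0.

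Levels are given below as log2 intensity relative to the 75th percentile of the array, so that 0 is that percentile. They can be compared between arrays for 1 gene, and not between genes, because probes differ in brightness.

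Among the regulators Foxj1 had the largest difference, beyond the median of -0.15 over the 28 genes, and those of Rfx2 and Rfx3 were smaller. Foxj1, the forkhead factor of ciliated cells, was at 2.11, 2.09 and 1.77 in wild types 1 to 3 and at 1.64, 1.84 and 1.39 in knockouts 1 to 3. Knockout 2 lay above wild type 3, so the groups overlapped, and knockout 3 was the lowest array. The difference was -0.37 (standard error, SE, 0.16; 95% interval -0.74 to 0.01; limma adjusted p = 0.20).

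Rfx2, an X-box factor that acts in ciliated cells, was at -2.64, -2.51 and -2.83 in the wild types and at -2.55, -2.80 and -2.76 in the knockouts, a difference of -0.04 (SE 0.13, limma adjusted p = 0.859). The arrays of the 2 groups were interleaved. Rfx3, a related factor needed for cilia, was at -3.82, -3.26 and -3.66 against -3.48, -3.36 and -3.33. Its knockouts were closer together than its wild types and lay inside their range, with a difference of 0.19 (SE 0.16, limma adjusted p = 0.490). The difference was 0.09 at another probe above background on all 6 arrays, and 0.35 at a dimmer probe above background on 4 arrays.

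The dynein arm genes differed in direction among themselves. Dnah5, a heavy chain of the outer arm, was at -1.02, -1.43 and -1.68 in the wild types and at -2.0, -1.68 and -2.01 in the knockouts. Wild type 1 was highest, and wild type 3 and knockout 2 had the same rounded level, so that the groups met. The difference was -0.52 (SE 0.19, 95% interval -0.97 to -0.07), with an unadjusted p of 0.029 and a limma adjusted p of 0.152. The other 2 probes of Dnah5 were above background on 1 array and on 0 arrays.

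Dnah11, the partner heavy chain of the outer arm near the base of the cilium, was at -0.74, -1.12 and -0.69 in the wild types and at -0.68, -0.39 and -0.53 in the knockouts. All 3 knockouts lay above all 3 wild types, by a narrow margin, and Dnah11 was the single gene of the 28 without overlap. Over all features 31.5% had no overlap between the groups. The difference was 0.32 (SE 0.15, limma adjusted p = 0.233).

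Dnai1, an intermediate chain of the outer arm, was at -0.89, -0.83 and -0.80 against -1.05, -0.63 and -0.96, and its wild types lay inside the range of its knockouts. The difference was -0.04 (SE 0.14, limma adjusted p = 0.871). Dnah9, the heavy chain of the outer arm toward the tip, had group means that were equal to 2 decimals (0.06 in either group; adjusted p = 0.998). A dim second probe of Dnah9, above background on 4 arrays, differed by 1.58, so the probes of this gene disagree. Dnah5 and Dnah11 thus had differences of opposite sign within 1 structure, and neither passed.

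In all 3 tested radial spoke genes the knockouts were spread more widely than the wild types. Rsph4a, a spoke head protein, was at -0.81, -0.79 and -1.12 in the wild types and at -1.52, -0.86 and -1.34 in the knockouts. Knockout 2 was at the level of the wild types and the other knockouts were below them (difference -0.33, SE 0.19, limma adjusted p = 0.312). Rsph9, another spoke head protein, was at 1.62, 1.38 and 1.57 against 1.65, 2.18 and 1.35. Here knockout 2 stood above every other array and knockout 3 was lowest (difference 0.20, SE 0.21, limma adjusted p = 0.581). Rsph1, a further spoke protein, was at -0.83, -0.59 and -0.62 against -0.89, -0.54 and -0.99 (difference -0.12, SE 0.15, limma adjusted p = 0.630), again with knockout 2 highest and knockout 3 lowest.

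Set beside one another, the regulators had a median difference of -0.04, the dynein arm genes of -0.02 and the radial spoke genes of -0.12. Each of these classes had 1 gene above 0, and none of their 10 genes passed. The counts above 0 changed in some alternative analyses. Dnah9 changed sign in 10 of 20, among them quantile normalization and the authors' deposited values. Rfx2 changed sign in 4, and Dnai1 and Rsph9 in 2 each. Single arrays moved these medians beyond their own size. Those of the regulators ran from -0.13 without wild type 3 to 0.03 without wild type 2, those of the dynein arm genes from -0.20 without knockout 2 to 0.10 without knockout 3, and those of the radial spoke genes from -0.26 without knockout 2 to -0.03 without knockout 3. The order of the 3 classes is therefore not resolved by these arrays.

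**Figure D2:**
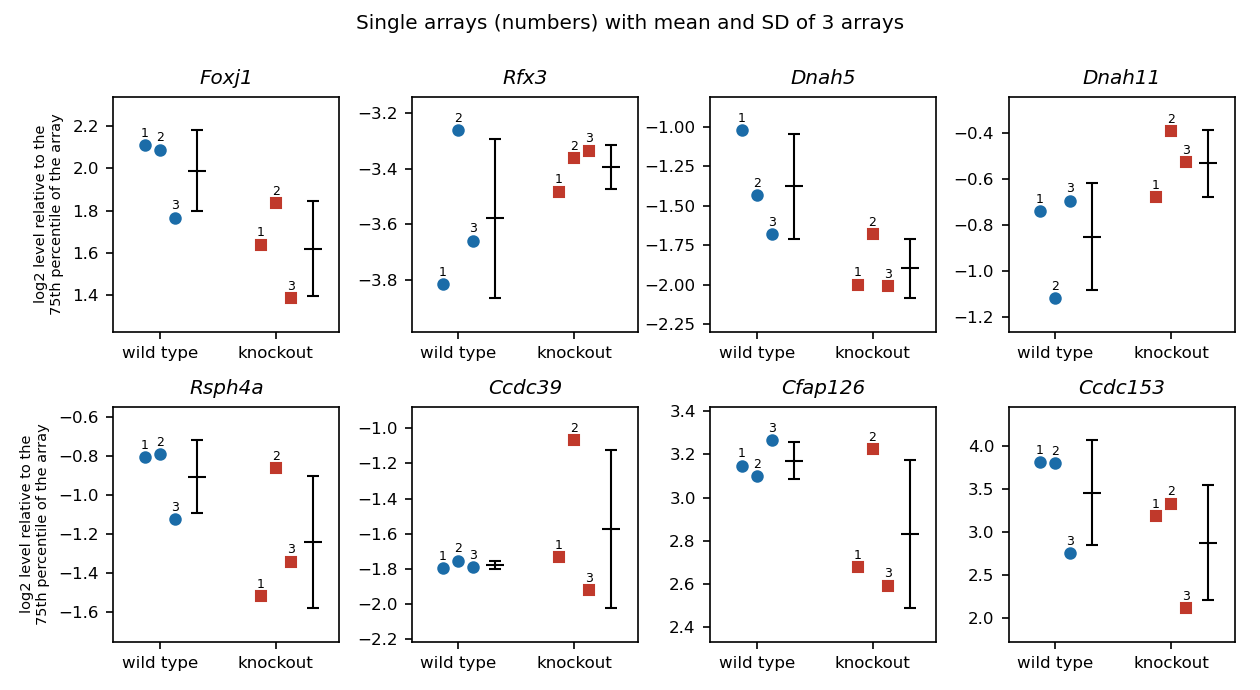
Log2 level of 8 cilia genes on each array relative to the array's 75th percentile, with array numbers 1 to 3 beside wild type (circles) and knockout (squares) points and the mean ± SD of the 3 arrays at the right of each group. Knockout 2 is the highest knockout in 7 of the 8 panels, all but Rfx3, and Ccdc153 is low on wild type 3 and knockout 3.

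The central apparatus genes had differences in both directions. Spag16, a protein of the central apparatus, was at -2.56, -2.89 and -2.21 in the wild types and at -3.32, -2.76 and -2.89 in the knockouts. Wild type 3 was highest, knockout 1 lowest and the rest overlapped (difference -0.44, SE 0.22, limma adjusted p = 0.249). A dimmer probe of Spag16, above background on 3 arrays, differed by -0.53. Spef2, a protein of the central apparatus, was at -4.93, -4.45 and -4.21 against -4.14, -4.17 and -4.73. Wild type 1 was lowest and the groups overlapped (difference 0.19, SE 0.23, limma adjusted p = 0.642). Spag17, a further protein of the central apparatus, was at -2.65, -2.52 and -2.70 against -2.52, -2.07 and -2.92, with all 3 wild types inside the range of the knockouts. Its difference was 0.12 (limma adjusted p = 0.745), and -0.02 with median scaling. Hydin, a large protein of the central pair, differed by -0.06 (limma adjusted p = 0.885).

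In the nexin link and ruler class, Drc1, a subunit of the nexin link, was at 2.25, 2.19 and 1.97 in the wild types and at 1.80, 2.18 and 1.51 in the knockouts. Knockout 2 stood among the wild types and knockouts 1 and 3 below them (difference -0.31, SE 0.19, limma adjusted p = 0.333). Ccdc39, part of the ruler that sets the axonemal repeat, was at -1.80, -1.75 and -1.79 against -1.73, -1.07 and -1.92. Its wild types were nearly equal (SD 0.02), while its knockouts ranged widely (SD 0.45), with a difference of 0.20 (SE 0.22, limma adjusted p = 0.580).

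All 4 genes of the tektin and inner microtubule class had a negative difference (median -0.25), and none passed. The class median was -0.48 without knockout 2 and -0.06 without knockout 3, where 3 of the 4 were below 0 and Tekt1 was not. Tekt1, Tekt2 and Tekt4 encode tektins, filament proteins within the doublet wall, and Enkur encodes another protein of the doublet lumen. Tekt4 was at 1.30, 1.29 and 1.20 in the wild types and at 0.98, 1.40 and 0.63 in the knockouts (difference -0.26, SE 0.19, limma adjusted p = 0.434). Tekt2 was at 1.83, 1.64 and 1.65 against 1.31, 2.01 and 1.07 (difference -0.24, limma adjusted p = 0.553). In both genes knockout 2 was the highest array and knockout 3 the lowest, and the wild types lay between them.

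Enkur followed the same order among the knockouts, at -0.93, -0.28 and -0.97, beside wild types at -0.59, -0.47 and -0.26 (difference -0.28, limma adjusted p = 0.415). Tekt1 was at 2.71, 2.75 and 2.80 against 2.55, 3.02 and 2.33. The 2 probes of Tekt1 gave differences of -0.12 and -0.07 and placed knockouts 2, 1 and 3 in the same order.

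The remaining class holds genes of the basal body and other ciliated cell products, and all 8 tested had a negative difference (median -0.26) with none passing. The class median ran from -0.43 without knockout 2 to -0.15 without knockout 1. With a term for Y-linked signal, or without the arrays that had it, 7 of the 8 were below 0 and Ccdc153 was not. Both of these fits set the knockouts against wild type 3 alone. Cfap126 (Flattop), a protein that acts in basal body positioning, was at 3.15, 3.1 and 3.26 in the wild types and at 2.68, 3.22 and 2.59 in the knockouts. Knockout 2 lay among the wild types and the other 2 knockouts were lower (difference -0.34, SE 0.18, limma adjusted p = 0.276). Mlf1 was at 1.34, 1.31 and 1.51 against 1.09, 1.40 and 0.82 (difference -0.28, limma adjusted p = 0.315). Ccdc78, a protein of the deuterosome that multiplies centrioles, was at -0.13, -0.19 and -0.31 against -0.72, -0.09 and -0.56 (difference -0.25, limma adjusted p = 0.396). In each of these genes knockouts 1 and 3 were below all wild types, while knockout 2 lay among them or, for Ccdc78, just above them.

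The other members of this class were Tppp3, a tubulin polymerisation protein (-0.26), Dynlrb2, a dynein light chain (-0.16, and -0.19 at its other probe), Ccdc113, a coiled-coil protein of cilia (-0.15), and Meig1 (-0.13). Ccdc153 is named because its values stood out once they were seen. It was at 3.81, 3.80 and 2.75 in the wild types and at 3.18, 3.33 and 2.12 in the knockouts. Wild type 3 and knockout 3, which share a number in the names of their scanner files, were the 2 lowest arrays. Ccdc153 had the largest difference of the 28 genes, -0.58, and also the largest error (SE 0.40, limma adjusted p = 0.396).

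Most of these genes shared an order among the knockouts. The median log2 level of the 28 genes, relative to the mean of all arrays, was 0.07, 0.07 and 0.01 in the wild types. In the knockouts it was -0.15, 0.25 and -0.32, with knockout 2 above every wild type and knockouts 1 and 3 below. With 3 arrays per group, spread among knockouts and a difference between groups cannot be told apart. Knockout 3 was the lowest of the 6 arrays in 19 of the 28 genes (67.9%), against 11% of all features. Knockout 2 was the highest array in 14, against 21.2% of all features. The knockouts stood in the order 2, 1, 3 from high to low in 19 genes (67.9%), against 16.7%. These counts describe the 28 genes on these arrays, and the genes share the same 6 RNA samples. The share of all probes well above background was 63.3%, 68.8% and 66.2% on knockouts 1, 2 and 3, so knockout 2 was highest here too and knockout 1 lowest, and its part in the order was not tested.

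The gap between knockouts 2 and 3 had a median of 0.59 on the log2 scale over the 28 genes, with a range from -0.04 to 1.21, against a median of 0.000854 over all features. Knockout 2 was above knockout 3 in 26 of the 28 genes (92.9%), and 26 were counted as well with quantile normalization, median scaling and normexp background correction. The 2 exceptions were among the regulators, Rfx2 and Rfx3, whose gaps were within 0.04.

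**Figure D3:**
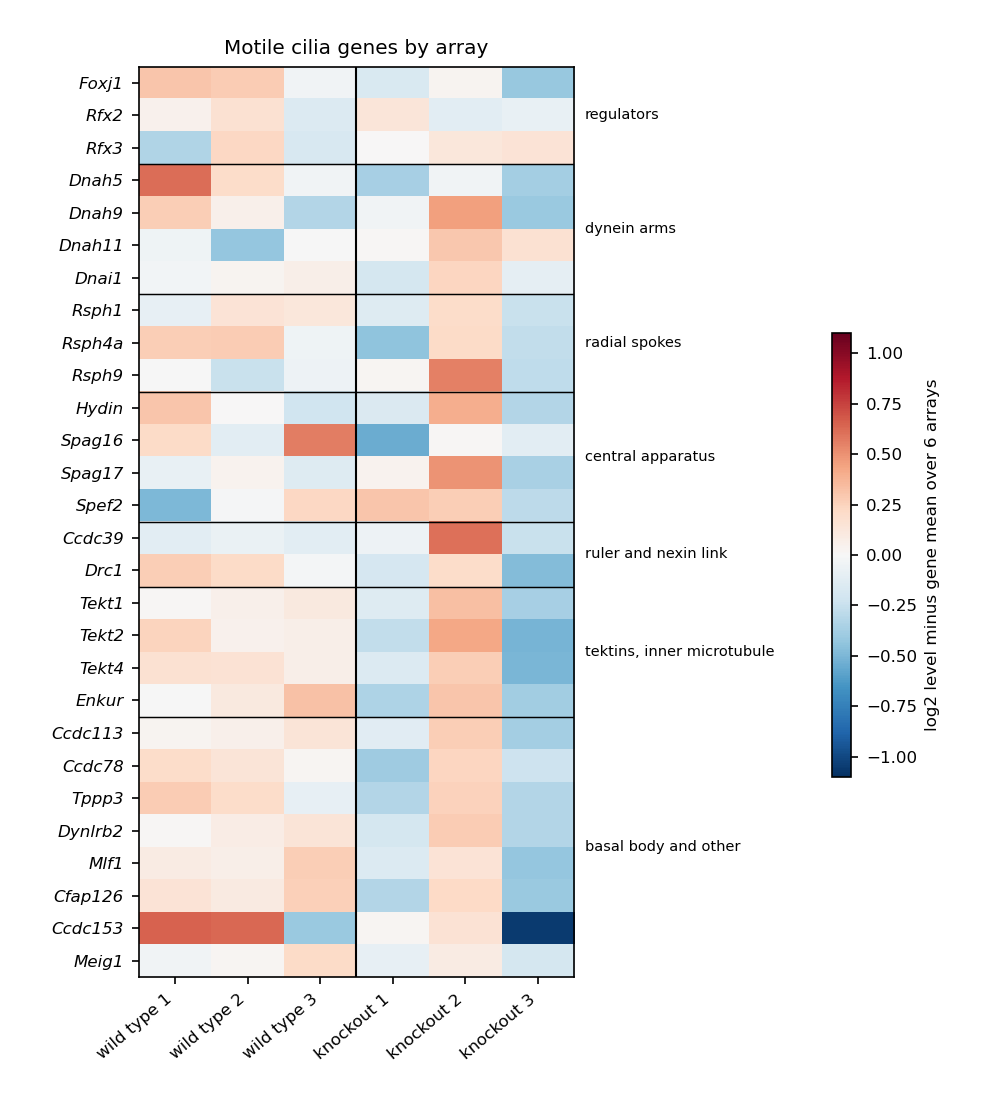
Log2 level of each of the 28 tested cilia genes on each array minus the mean of that gene over the 6 arrays (colour, red above and blue below the mean), with genes grouped by role and the vertical line between wild types and knockouts. The column of knockout 3 is mostly blue and that of knockout 2 mostly red, with Ccdc153 the darkest blue.

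Spread within the knockouts was larger than within the wild types in 22 of the 28 genes (78.6%), against 53.6% of all features. The median SD was 0.142 in the wild types and 0.332 in the knockouts, where all features had medians of 0.15 and 0.167. In 13 genes (46.4%) all wild types lay inside the range of the knockouts, against 13.9% of all features. Among the tektin and inner microtubule genes all 4 had knockout 3 as the lowest array, and in the last class 6 of 8 did. The regulators did not follow this order as a class, since knockout 3 was lowest in 1 of 3 (Foxj1) and knockout 2 highest in none.

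The median difference therefore moved with single knockout arrays. It was -0.33 without knockout 2, where 14 of the 28 genes, all lower, had an unadjusted p under 0.05 and none passed after adjustment. Over all features of that fit the share at an unadjusted p under 0.05 was 21.2%, or 8.67% lower. Without knockout 3 it was -0.04. Knockout 3 was hybridised on slide 1 with wild types 1 and 2, wild type 3 on slide 2, and knockouts 1 and 2 on slide 3. The gap between knockouts 2 and 3 is therefore also one between slides, and embryo and slide cannot be told apart there. Within slide 1, 26 of the 28 genes were lower in knockout 3, with a median of -0.41. Against wild type 3, with which it shares a number in the scanner file names, 25 of the 28 were lower, with a median of -0.38. Both of these values rest on knockout 3 alone. Wild types 1 and 2 had signal from Y-linked genes and the other 4 arrays had none, and with a term for this split the median was -0.14. That fit sets the knockouts against wild type 3 alone.

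Other genes of cilia, from a list of 128 that are not among the 33, were read for the same measures. Of these, 106 had a probe and 103 were tested, and none passed (limma, adjusted p under 0.05), with 9 positive and 10 negative differences at an unadjusted p under 0.05. The background shares are those given above, 1.34% and 25.8%. Differences were below 0 for 62 and above 0 for 41, with a median of -0.08. Nme8, Dnaaf6 and Cfap221 had probes below background and were not tested. Leaving aside intraflagellar transport, knockout 3 was the lowest array in 51 of 83 genes (61.4%) and knockout 2 the highest in 46 (55.4%), and the order 2, 1, 3 held in 58 (69.9%).

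By role, 24 of the 29 other ciliated cell markers were below 0 (median -0.18), as were 11 of the 13 other spoke, central apparatus and nexin link genes (median -0.17). Of the 18 other dynein arm and dynein assembly genes 10 were below 0 (median -0.03), and of the 12 other inner microtubule genes 7 (median -0.04). In the class of multiciliation and centriole factors 7 of 11 were above 0 (median 0.08). In the class of intraflagellar transport, the train that carries parts along every cilium and is shared with the single primary cilium of other cells, 14 of 20 were above 0 (median 0.05). Knockout 3 was the lowest array in 7 of these 20 (35%), and knockout 2 stood above knockout 3 in 17 (85%).

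The genes of smallest p in each direction were Fam216b, Dnah10 and Pifo below 0 and Cfap44, Dnaaf2 and Ift88 above 0. Fam216b, a ciliated cell transcript, was at -1.74, -1.62 and -1.79 in the wild types and at -2.26, -2.43 and -2.61 in the knockouts. All knockouts lay below all wild types, with a difference of -0.71 (SE 0.13, limma adjusted p = 0.0506). The difference passed in 8 of 20 alternative analyses, among them quantile normalization (adjusted p = 0.0429) and the authors' deposited values (0.0426), and over the alternatives it ran from -0.92 to -0.60 with adjusted p from 0.0297 to 0.642.

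Dnah10, a heavy chain of an inner dynein arm, was at -3.03, -3.32 and -3.41 against -4.76, -4.25 and -5.74, a difference of -1.67 (SE 0.35, limma adjusted p = 0.0625). Knockout 3 was the lowest array, and another Dnah10 probe was below background on all arrays. Over the alternatives the difference ran from -2.57 with the slide as a block to -0.94 with normexp, where it passed (limma adjusted p = 0.045). The slide block sets knockout 3 alone against wild types 1 and 2. Pifo, a protein of the ciliary base, was at 0.12, 0.15 and 0.18 against -0.51, -0.09 and -0.55, a difference of -0.53 (limma adjusted p = 0.0911). Its wild types were close together and all knockouts were below them.

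Cfap44, a protein that tethers inner dynein arms, was at -2.41, -2.44 and -2.75 in the wild types and at -1.49, -0.94 and -1.80 in the knockouts. The groups did not overlap, and the difference was 1.12 (SE 0.23, limma adjusted p = 0.0596), with a range from 0.62 to 1.34 over the alternatives. Cfap44 lies on chromosome 16, the chromosome of Dppa2, and whether sequence linked to the targeted allele moved with it was not tested. The other tested cilia genes on that chromosome were Ift57 (0.33), Cfap298 (-0.33) and Iqcg (-0.19), and none passed. None of the 33 genes lies on chromosome 16. Dnaaf2, a dynein assembly factor, differed by 0.39 (limma adjusted p = 0.0887), and Ift88, a core protein of the transport train, by 0.46 (adjusted p = 0.133). Cfap44 and Dnah10 passed without knockout 3 (adjusted p = 0.044 and 0.0452), and the centriole genes Cep152 (0.62) and Plk4 (0.81) passed without wild type 3.

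Markers of other airway cells were read beside the cilia genes. All 7 tested markers of secretory cells had a negative difference, and their median level relative to the mean of all arrays was 0.54, 0.36 and 0.11 in the wild types and -0.43, -0.27 and -0.40 in the knockouts. The groups did not overlap on this measure. Negative differences were found in lists of other tissues too, and over all features 0.625% passed as lower in the knockouts. All 6 cardiac muscle markers had a negative difference and 4 passed, with list medians of 0.65, 0.59 and 0.61 in the wild types and -0.64, -0.56 and -0.75 in the knockouts, and all 6 mesothelial markers had a negative difference and 1 passed. Of the 7 secretory markers, Scgb3a1, a secretoglobin, fell by 2.94 (SE 0.31, limma adjusted p = 0.0137), and Gabrp, a subunit of the GABA receptor family found in airway epithelium, fell by 1.44 (adjusted p = 0.0286). These calls held in 15 and 11 of 20 alternatives. Both were lost with no background filter and without knockout 1 (limma adjusted p = 0.052 and 0.0903). They were also lost with a term for the arrays with Y-linked signal and without these arrays. These 2 alternatives are the same comparison, of the knockouts with wild type 3 alone, with differences of -2.66 and -0.99. The slide as a block, which sets knockout 3 alone against wild types 1 and 2, lost both calls too. The call of Gabrp was also lost without wild type 1, wild type 2 or knockout 2. On the same measure the 28 cilia genes were at 0.07, 0.07 and 0.01 in the wild types and at -0.15, 0.25 and -0.32 in the knockouts, which overlap.

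**Figure D4:**
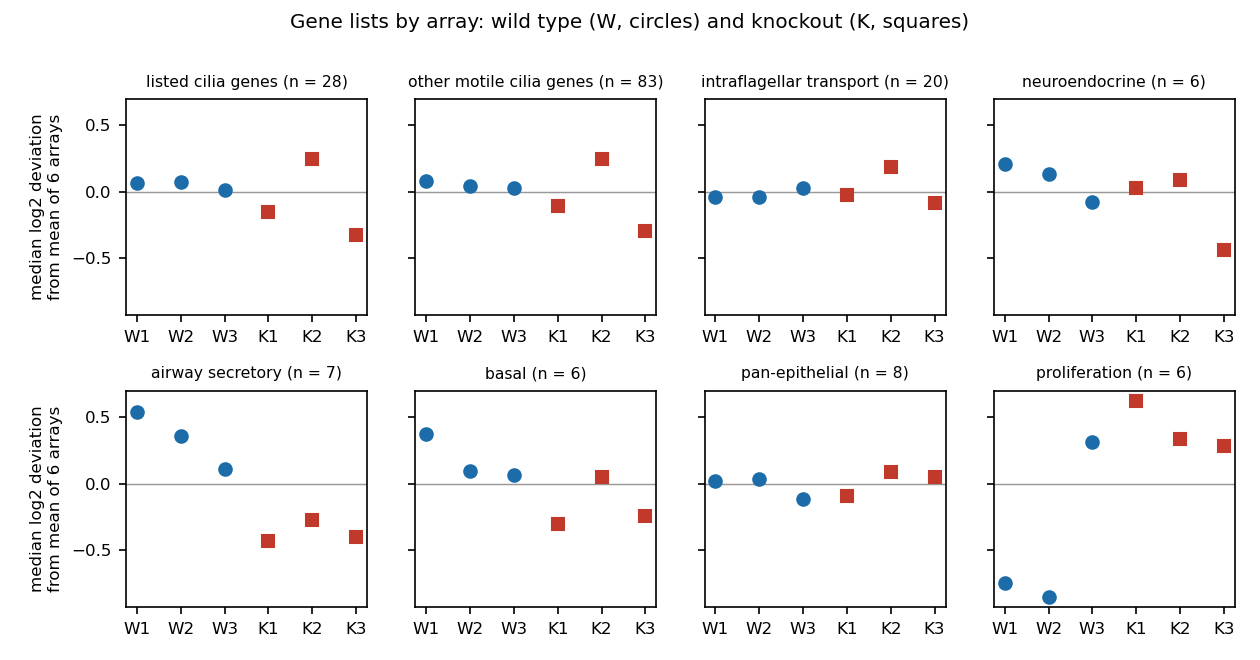
Median over the tested genes of each list of the log2 level minus the gene's mean over 6 arrays, for wild types W1 to W3 (circles) and knockouts K1 to K3 (squares), with the number of genes in each title. The cilia lists have knockout 2 highest and knockout 3 lowest, the secretory list separates the groups, and the proliferation list sets wild types 1 and 2 apart from the other 4 arrays.

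Markers of pulmonary neuroendocrine cells shared part of the pattern of the cilia genes. Knockout 3 was lowest in 4 of 6 and knockout 2 stood above knockout 3 in 6 of 6, with list medians of 0.21, 0.13 and -0.08 in the wild types and 0.03, 0.09 and -0.44 in the knockouts. Calca, the precursor of the peptide CGRP (-0.59, limma adjusted p = 0.147), and Resp18 (-0.45, adjusted p = 0.168) had the smallest p and did not pass. A general epithelial list, in which not every marker is shared by all epithelial cells, had knockout 3 lowest in 1 of 8. This was Sox2, an airway factor, with knockouts at -2.39, -2.01 and -2.66. The medians of this list lay between -0.11 and 0.09 over the 6 arrays, with a median difference of 0.06. Markers of basal cells had list medians of 0.37, 0.10 and 0.07 in the wild types and -0.30, 0.05 and -0.25 in the knockouts. Of these 6 markers 0 passed and 3 had an unadjusted p under 0.05, against 1.34% and 25.8% of all features. The part of each of these cell types in the order of the cilia genes over arrays was not tested.

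Several cilia genes are also active in the testis, and the sperm markers Odf1, Akap4 and Acrv1 were above background on 0 arrays. Tnp2 was above background on 4 arrays and Prm2 on 2, and neither was tested. Tnp1 (-0.61), Prm1 (-0.37) and Ldhc (-0.11) were tested and did not pass. The lung epithelial markers Nkx2-1, Epcam and Sftpc were above background on all 6 arrays.

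Over all arrays, 63.3% to 68.8% of 41174 probes lay well above background, and knockouts 1 and 2 held the extremes. Dppa2, the targeted gene, had a difference of -1.23 (SE 0.26, limma adjusted p = 0.0615). The position of its probe relative to the deletion is not given in the sources used here, so this value checks nothing. Proliferation markers stood at -0.75 and -0.85 in wild types 1 and 2 and between 0.29 and 0.62 on the other 4 arrays, a split that the medians of the cilia genes did not share.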

How the data were processed

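Each array held labelled RNA of 1 embryonic lung, 3 wild type and 3 Dppa2 knockout. Per the file headers, Agilent Feature Extraction 10.7.3.1 made the deposited intensity of each spot, subtracted for background and not scaled between arrays, on a design that refers to mm9. The authors also deposited log2 values, which matched quantile-normalized scanner intensities set relative to the wild type median (correlation 0.9921 to 0.9971 per array). Their method is not given in the sources used here, and they served as an alternative.

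Control spots were left out, and outlier spots among the rest (77 to 110 per array) were left out too. Spots of a probe were averaged, and log2 intensities were set relative to each array's 75th percentile (1445.0 to 1595.1). A probe was kept where every array of one group or the other had it well above background, with the brightest probe per gene over all 6 arrays. Of 41174 probes, 64.8% received a symbol through RefSeq accessions (GRCm38.p6). The comparison used limma 3.58.1 (lmFit, eBayes, two-sided, no covariate; R 4.3.3), and p-values were adjusted over 19855 features. The steps were tested on simulated data. Precision is limited by having 3 arrays per group.

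The listed genes and all marker lists were chosen with earlier results of these data known. Values on every array are given for the regulators and for up to 3 genes of smallest p in each role class, and for the 3 other cilia genes of smallest p in each direction. Tekt1 and Ccdc153 were added after their values were seen. Alternatives covered scaling, background correction, filters, probe choice, the slide, file name number and replicate number as blocks, a term for Y-linked signal, and leaving out arrays.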

Additional observations from a re-analysis of the deposited data

How the results depend on the processing

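None of the 28 cilia genes passed in any of 20 alternatives, and their median difference was below 0 in all 20. The median was -0.41 with the slide as a block. That fit sets knockout 3 alone against wild types 1 and 2, since no other slide held both groups. When single arrays were left out, the median ranged from -0.33 to -0.04. Of 560 recomputed differences of the 28 genes, 35 changed sign, in 10 of the genes (Dnah9 in 10 alternatives, Hydin in 5), and 18 genes never changed sign. Alternatives that changed only the filter, the variance model or the replicate block left these differences as they were, so no sign could change there. The term for Y-linked signal and leaving out those arrays gave the same differences. Quantile normalization and the deposited values gave nearly the same. The 20 alternatives are therefore not separate checks of sign. With median scaling, which moved the median of all features by -0.14, the cilia genes had a median of -0.30 and Spag17 was at -0.020. With the slide as a block Spag17 was at -0.33, Rsph9 at -0.15, Spef2 at -0.035 and Ccdc39 at -0.15. With a term for Y-linked signal Rfx2 was at 0.13 and Spef2 at -0.13, as without wild types 1 and 2. Both of these fits set the knockouts against wild type 3 alone. Without single arrays the differences ran from -0.13 to 0.032 for Rfx2, -0.17 to 0.046 for Dnai1, -0.027 to 0.39 for Rsph9, -0.095 to 0.33 for Spag17, -0.012 to 0.38 for Spef2 and -0.048 to 0.38 for Ccdc39. The cause was not tested.

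The other cilia genes had 0 calls, and 1 with quantile normalization, median scaling, the authors' deposited values, the filter on all 6 arrays or the mean over probes, 2 with normexp, 3 with the file name number as a random block (correlation -0.188), and 0 to 3 without single arrays (3 without wild type 3, 2 without knockout 3). Over all features the 267 calls became 28 with no background filter, 173 with the filter on at least 3 arrays, 47 with the replicate block, 16 with the slide as a block, 1518 with the file name number, 17 with the term for Y-linked signal, and 0 by limma without both arrays that carried it (1456 at an unadjusted p under 0.05). Without single arrays they ranged from 36 to 1863. The split of calls was 143 higher and 124 lower, and it was 58 and 138 with quantile normalization, 59 and 137 with the deposited values, and 81 and 240 with median scaling. Same-numbered wild types and knockouts did not deviate together over all features (correlations -0.020, 0.042 and 0.027). With 3 arrays per group these values cannot settle whether the numbers pair the embryos. The replicate block changed no call among the 28 genes and ended that of the secretory marker Gabrp (adjusted p = 0.0729). Normexp on mean signals was not run, and median signals took its place. Leaving out both Y-linked arrays and normexp on median signals were chosen after seeing the data.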
